A study of Arabidopsis thaliana with 21 samples.

Results

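The genes described here encode nuclear subunits of the photosynthetic electron transport chain of Arabidopsis thaliana, without the light-harvesting antenna. They were taken by locus from a list of named genes, with no cutoff on a measured value. The list was drawn up with earlier results of these data known. There were 32 of them among the 32548 genes of the deposited table: 12 in photosystem I, 11 in photosystem II, 4 in the cytochrome b6f complex with plastocyanin, 3 in the ferredoxin branch and 2 in the chloroplast ATP synthase. All 32 passed the filter on low values and were tested, with 23290 genes tested in all. RNA was sequenced from 7 genotypes at 30 days of age, with 3 libraries for each. The mutants were labelled gcn5-/-, ada2b-c-/-, ada2a-/- and spc-/-, with the double mutants ada2b-c-/-ada2a-/- and ada2b-c-/-spc-/-, and the wild type was Col-0. GCN5 is a histone acetyltransferase, and ADA2A and ADA2B are adaptor proteins that bind it. Neither the kind of mutation in any line nor the gene behind spc is given in the labels, and no treatment is named for any group.

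In the chloroplast, photosystem II splits water and passes electrons through the cytochrome b6f complex and the soluble copper protein plastocyanin to photosystem I. Photosystem I passes them to ferredoxin, from which ferredoxin-NADP reductase makes NADPH, while the proton gradient drives the ATP synthase. The reaction centre proteins are made in the plastid, whereas most of the peripheral and extrinsic subunits are encoded in the nucleus and imported. These nuclear genes are among the most strongly expressed genes of green leaves, and transcription factors such as GLK1 and GLK2 are known to activate many of them.

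The values are the authors' deposited signal for each gene, which is not a whole-number count, so depth and counting error are unknown. Column totals ran from 27411400 in an ada2b-c library to 58700400 in an spc library. A change is the difference of group means of log2(signal + 1), given ± SE from a limma fit over all 21 libraries, with p-values adjusted over the 23290 genes. Genes with an adjusted p under 0.05 count as called. The labels do not say whether the 3 libraries of a genotype are separate plants, so each p-value speaks for the spread between libraries and no more. That spread is pooled for each gene over all genotypes, and the genotypes differed in it. The median SD of a gene on the log2 scale was 0.115 in ada2b-c, 0.279 in Col-0 and 0.485 in spc. A p-value is thus not set by the spread of the groups compared alone. The groups are named as labelled, because the transcripts of the targeted genes did not check the labels in every case: GCN5 stood at 275 ± 14.9 in gcn5 and 372 ± 51.0 in Col-0 (SD, n = 3 each), with a change of -0.43 (limma adjusted p = 0.123), and ADA2B stood at 583 ± 27.4 in ada2b-c and 494 ± 213 in Col-0. ADA2A was called lower than in Col-0 in ada2b-cada2a, with a change of -4.11, but not in ada2a, where the adjusted p was 0.0539.

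One property of the libraries moved with genotype and touches every result on these genes, which have short transcripts (median 1056 bases, against 1620 over all genes tested). Within each library the deviation from the mean of all libraries was fitted on transcript length. The slope for each doubling of length was -0.15 ± 0.44 in gcn5, 1.01 ± 0.05 in ada2b-c, 0.79 ± 0.13 in ada2b-cada2a, 0.86 ± 0.08 in ada2b-cspc, -1.0 ± 0.25 in ada2a, -1.11 ± 0.37 in spc and -0.40 ± 0.21 in Col-0 (SD, n = 3 each). Short transcripts were thus lower in the 3 genotypes that carry ada2b-c and higher in ada2a and spc, and this trend and the genotype cannot be told apart. Counts of the 32 genes are therefore also given after a spline over transcript length and GC content was subtracted from every library, called the corrected values.

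The 300 bases before the annotated gene starts were read for motifs of light-regulated promoters, on both strands. A G-box (CACGTG) stood before 7 of 32 genes (21.9%), against 7.06% of 27561 genes of the annotation. An I-box (GATAAG) stood before 8 (25.0%), against 14.5% of all genes, and the motif AGATTCT, which GLK proteins bind, before 5 (15.6%), against 7.60%. At least 1 of the 3 was found before 15 genes (46.9%), against 26.3% of all genes. The promoters of PSBQ-2, PSBQ-1, PETE2, PETE1 and PSAN are printed because their genes carry the contrasts of the results. Both PSBQ copies were called lower in gcn5 and in ada2b-c, PSBQ-2 by more. The PETE copies parted, and PSAN had the most negative change in the deposited values of ada2b-c. Sequences are from RefSeq's TAIR10.1 genome, read 5′ to 3′ towards the gene, with the motifs in capitals.
PSBQ-2, chr4:2673244-2673543 on the minus strand: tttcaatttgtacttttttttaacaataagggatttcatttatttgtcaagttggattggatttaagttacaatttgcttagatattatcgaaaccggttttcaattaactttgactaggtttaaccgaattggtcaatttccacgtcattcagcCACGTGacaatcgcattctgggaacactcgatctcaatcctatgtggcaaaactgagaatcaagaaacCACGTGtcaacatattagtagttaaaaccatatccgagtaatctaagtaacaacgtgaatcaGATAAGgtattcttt
PSBQ-1, chr4:11334052-11334351 on the plus strand: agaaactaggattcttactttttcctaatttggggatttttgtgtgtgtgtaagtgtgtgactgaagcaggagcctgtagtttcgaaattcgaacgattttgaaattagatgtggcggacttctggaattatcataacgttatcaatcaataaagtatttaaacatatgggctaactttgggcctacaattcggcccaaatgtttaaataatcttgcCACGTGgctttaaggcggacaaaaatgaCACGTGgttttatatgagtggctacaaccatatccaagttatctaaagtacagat
PETE2, chr1:7043393-7043692 on the minus strand: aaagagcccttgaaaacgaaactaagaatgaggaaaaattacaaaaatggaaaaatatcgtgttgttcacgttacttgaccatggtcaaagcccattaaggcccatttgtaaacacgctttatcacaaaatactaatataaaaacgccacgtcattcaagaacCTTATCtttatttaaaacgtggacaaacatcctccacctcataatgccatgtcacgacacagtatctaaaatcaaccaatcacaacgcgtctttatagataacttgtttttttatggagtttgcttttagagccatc
PETE1, chr1:28554931-28555230 on the minus strand: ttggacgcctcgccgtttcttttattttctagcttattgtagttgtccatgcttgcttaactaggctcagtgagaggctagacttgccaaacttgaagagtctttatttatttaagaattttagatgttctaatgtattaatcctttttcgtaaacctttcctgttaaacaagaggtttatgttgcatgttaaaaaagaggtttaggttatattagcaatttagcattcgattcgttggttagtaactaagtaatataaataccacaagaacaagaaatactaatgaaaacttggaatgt
PSAN, chr5:25629709-25630008 on the minus strand: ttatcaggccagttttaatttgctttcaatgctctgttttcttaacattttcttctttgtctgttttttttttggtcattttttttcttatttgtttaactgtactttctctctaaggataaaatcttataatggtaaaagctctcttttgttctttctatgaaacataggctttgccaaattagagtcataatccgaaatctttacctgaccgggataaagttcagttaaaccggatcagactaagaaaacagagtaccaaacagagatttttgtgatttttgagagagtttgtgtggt

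In the PSBQ-2 window a G-box occurred at 2 places and an I-box once, and in the PSBQ-1 window a G-box occurred at 2 places. PETE2 had an I-box, read as CTTATC on the other strand, and no G-box. The PETE1 and PSAN windows held none of the 3 motifs, and none of the printed motifs overlapped another. A match describes these letters only.

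Every subunit gene was lower in ada2b-c than in Col-0. All 32 were called lower, where 33.6% of all genes tested were called lower and 32.4% higher, and the median change of the 32 was -3.02, an 8.11-fold lower level, against -0.06 over all genes tested. The changes ran from -4.63 for PSAN to -0.81 for PETE1, and after the correction 31 were called lower (28.7% of all genes) with a median of -2.29, PETE1 being the exception. The libraries of ada2b-c lay below all Col-0 libraries for all 32 genes, as they did for 40.6% of all genes tested. Summed, the 32 genes took 1.30%, 1.37% and 1.38% of the column total in ada2b-c, against 7.96%, 8.39% and 9.13% in Col-0.

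In gcn5 most of the chain was lower, by less. Of the 32 genes 27 were called lower and 0 higher, where 18.7% of all genes tested were called lower and 15.6% higher, and the median change was -1.11, a 2.16-fold lower level, against 0 over all genes tested. The 5 that were not called were PSAE-2 (-0.42), PSAH-1 (-0.48), PETM (-0.80), FNR2 (-0.71) and PETE1 (0.39), and after the correction 29 were called lower (20.5% of all genes), with PSAH-1, FNR2 and PETE1 not called. When same-numbered libraries of gcn5, ada2a and Col-0 were blocked, PETM (limma adjusted p = 0.0201) and FNR2 (adjusted p = 0.0239) were called lower too. The labels do not say that the numbers pair libraries. Same-numbered deviations correlated at 0.043 to 0.414 in these 3 genotypes and at -0.164 to 0.444 over all genotypes. The block thus follows a pattern seen in these same data, and the 2 added calls rest on a pairing that is not settled. The libraries of gcn5 lay below all Col-0 libraries for 28 of the 32, against 24.4% of all genes. The sum of the 32 took 3.74%, 4.28% and 4.78% of the column total in gcn5, between the shares in ada2b-c and in Col-0. In bulk RNA, fewer green cells and less RNA per cell cannot be told apart.

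The nuclear subunits of photosystem I dock ferredoxin on the stromal side, receive plastocyanin on the lumenal side and bind antenna proteins. All 12 genes were called lower in ada2b-c (33.6% of all genes tested), with a median change of -3.20. In gcn5 10 of 12 were called lower (18.7% of all genes), with a median of -1.06. PSAE-2 (-0.42) and PSAH-1 (-0.48) were below 0 in gcn5 as well and not called. PSAN, which encodes a lumenal subunit on the plastocyanin side, had the most negative change of the 32 genes in the deposited values in ada2b-c and in both double mutants. Under other scalings other genes came first: in the corrected values PSBQ-2 (-3.31) in ada2b-c and PSAO (-2.72) in ada2b-cspc, and with the length slope as covariate FD2 in ada2b-c (-3.70) and in both double mutants. PSAN stood at 25011, 27299 and 50169.6 in gcn5, at 5491, 6164 and 6287 in ada2b-c, at 10864, 12427 and 11189 in ada2b-cada2a and at 10759, 10994 and 8640.5 in ada2b-cspc. PSAN held 186841, 258685 and 326723 in ada2a and 137477, 325065 and 205198 in spc, against 127218, 166058 and 154034 in Col-0. The gcn5, ada2b-c and double mutant libraries all lay below those of Col-0, and those of ada2a above them, while those of spc overlapped Col-0. PSAN (AT5G64040, chr5:25628521-25629708 in TAIR10.1, 3 exons) changed by -2.19 ± 0.28 (adjusted p = 3.83e-06) in gcn5 and by -4.63 ± 0.28 (adjusted p = 2.36e-11) in ada2b-c by limma, a 24.8-fold lower level that came to -3.28 on the log2 scale in the corrected values.

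PSAK (-4.15) and PSAO (-4.06), small subunits at the antenna-binding edge of photosystem I, followed PSAN among the photosystem I genes in ada2b-c, and PSAH-2 (-3.78) and PSAL (-3.80), on the side where antenna of photosystem II can dock, fell by similar amounts. PSAF, the plastocyanin docking subunit, changed least of the 12, by -2.0 ± 0.21 (adjusted p = 5.7e-08) in ada2b-c. PSAG, an antenna-binding subunit, changed by -1.08 ± 0.19 in gcn5 and -3.04 ± 0.19 in ada2b-c. All of these were called in gcn5 as well, with changes between -0.84 for PSAF and -1.59 for PSAK.

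PSAD, PSAE and PSAH are each encoded by a pair of nuclear genes. PSAD and PSAE form the stromal ridge where ferredoxin binds. PSAD-1 stood at 45775, 54781 and 49749.8 in gcn5, at 12432, 11632 and 11398 in ada2b-c, at 21811, 18448 and 20783 in ada2b-cada2a and at 19578, 18704 and 18006 in ada2b-cspc. PSAD-1 held 91705, 100455 and 101155 in ada2a and 77236, 68449 and 65959.9 in spc, against 101254, 81619.7 and 82825 in Col-0. Its copy PSAD-2 was lower in level and followed the same order of genotypes. PSAD-2 stood at 18553, 20478 and 17273 in gcn5, at 5217, 4963 and 5053 in ada2b-c, at 7516, 8299 and 7679.6 in ada2b-cada2a and at 7607, 7412 and 6413 in ada2b-cspc. PSAD-2 held 42073, 56274 and 43392 in ada2a and 34357, 29114 and 30036 in spc, against 40759, 39452 and 36166 in Col-0. In both genes the gcn5, ada2b-c and double mutant libraries lay below all Col-0 libraries. The 2 copies changed by nearly the same amount in ada2b-c, -2.90 ± 0.14 for PSAD-1 and -2.93 ± 0.14 for PSAD-2.

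The PSAE copies differed more in spread. PSAE-1 stood at 13488, 15939.5 and 20263 in gcn5, at 3023, 2781 and 3275 in ada2b-c, at 6254, 4537 and 5441 in ada2b-cada2a and at 5001, 4751 and 4128 in ada2b-cspc. PSAE-1 held 46683, 48999 and 46427 in ada2a and 40562, 58859 and 40476 in spc, against 26300.5, 30284 and 37487 in Col-0. For PSAE-1 the gcn5 libraries lay below those of Col-0. PSAE-2 stood at 21785, 30490.2 and 44982 in gcn5, at 6034, 6972 and 6343 in ada2b-c, at 12972, 11861 and 11736 in ada2b-cada2a and at 9818, 10803 and 9172 in ada2b-cspc. PSAE-2 held 60204, 103957 and 128350 in ada2a and 55795, 144198 and 68206 in spc, against 33042, 42293 and 51663 in Col-0. The PSAE-2 libraries of gcn5 overlapped those of Col-0, and its change in gcn5 was not called as deposited, at -0.42 ± 0.31 (adjusted p = 0.311) by limma, and was called after the correction, at -0.56 (adjusted p = 0.00459). In ada2b-c the changes were -3.36 ± 0.19 for PSAE-1 and -2.69 ± 0.31 for PSAE-2.

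For PSAH the copy with the higher level per kb in Col-0 fell further in the deposited values of ada2b-c. That copy, PSAH-2, also has the shorter transcript (702 bases, against 1300 for PSAH-1). The trend over length lowers short transcripts in ada2b-c, and its part in the difference between the copies was not tested. PSAH-1 stood at 10479.9, 16118 and 20051 in gcn5, at 2799, 4054 and 3481 in ada2b-c, at 5940, 7672 and 5587 in ada2b-cada2a and at 5382, 5721 and 4465 in ada2b-cspc. PSAH-1 held 32673, 72601 and 30407 in ada2a and 31226, 38110.4 and 47736 in spc, against 13385, 22086 and 31077 in Col-0. The gcn5 libraries of PSAH-1 overlapped those of Col-0. PSAH-2 stood at 15631, 18224 and 24589.7 in gcn5, at 2814, 3134 and 3025 in ada2b-c, at 5895, 5822 and 5604 in ada2b-cada2a and at 4362, 4398 and 3669.8 in ada2b-cspc. PSAH-2 held 54203, 72453 and 72314 in ada2a and 43438, 71268 and 52237 in spc, against 35914, 49439 and 38830.4 in Col-0. PSAH-2 libraries of gcn5 lay below all those of Col-0. PSAH-1 changed by -2.62 ± 0.32 in ada2b-c and was not called in gcn5, and PSAH-2 changed by -3.78 ± 0.19 in ada2b-c and by -1.10 ± 0.19 in gcn5.

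In photosystem II, PSBO, PSBP and PSBQ form the extrinsic shield of the oxygen-evolving manganese cluster on the lumenal side, and PSBS is the sensor of excess light that sets heat dissipation. All 11 genes were called lower in ada2b-c (median -3.05) and all 11 in gcn5 (median -1.33). PSBQ-2 (AT4G05180, chr4:2671523-2673243) fell furthest in ada2b-c. PSBQ-2 stood at 52345, 53221 and 71188 in gcn5, at 11285, 11175 and 12297 in ada2b-c, at 24749, 23267 and 21843 in ada2b-cada2a and at 21569, 21229.5 and 17063 in ada2b-cspc. PSBQ-2 held 183475, 172544 and 172672 in ada2a and 133852, 163335 and 168629 in spc, against 159699, 180764 and 209250 in Col-0. The gcn5 libraries lay between those of ada2b-c and of Col-0 with no overlap, and those of ada2a and spc overlapped Col-0. PSBQ-2 changed by -1.64 ± 0.17 (adjusted p = 1.93e-07) in gcn5 and by -3.98 ± 0.17 (adjusted p = 1.23e-13) in ada2b-c by limma, a 15.7-fold lower level in ada2b-c and -3.31 on the log2 scale in the corrected values.

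Its copy PSBQ-1 had the lower mean signal in every genotype. PSBQ-1 stood at 26698, 28537 and 35142 in gcn5, at 9378, 10329 and 8047 in ada2b-c, at 16163, 16620.1 and 14609 in ada2b-cada2a and at 14614, 12379 and 11672 in ada2b-cspc. PSBQ-1 held 82764, 110883 and 96519 in ada2a and 61149.8, 87867 and 67898 in spc, against 66623, 69747 and 95687 in Col-0. PSBQ-1 separated gcn5 and ada2b-c from Col-0 in the same way, with changes of -1.35 ± 0.18 in gcn5 and -3.05 ± 0.18 in ada2b-c. PSBO1, the main gene for the manganese-stabilising protein, ranked 3 of 32 in level per kb of transcript in Col-0. PSBO1 stood at 138900, 170849 and 184862 in gcn5, at 40231, 45637 and 45783 in ada2b-c, at 74993, 81134 and 72492 in ada2b-cada2a and at 69506, 58706 and 60984 in ada2b-cspc. PSBO1 held 381169, 508313 and 494603 in ada2a and 311634, 323350 and 357546 in spc, against 320912, 366836 and 311493 in Col-0. The ada2b-c, double mutant and gcn5 libraries of PSBO1 all lay below Col-0. PSBO2 stood at 21315, 33997 and 25694 in gcn5, at 8765, 9397 and 9069 in ada2b-c, at 14391, 14259.7 and 13701 in ada2b-cada2a and at 12504, 12922 and 10893 in ada2b-cspc. PSBO2 held 46480.1, 66266 and 57828 in ada2a and 48696, 34263 and 40101 in spc, against 43109, 52371 and 44927 in Col-0. The same held for PSBO2, whose change in ada2b-c was -2.36 ± 0.18, against -2.92 ± 0.17 for PSBO1.

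PSBP-1 changed by -1.43 ± 0.16 in gcn5 and -3.29 ± 0.16 in ada2b-c, and PSBS by -1.33 ± 0.15 and -3.0 ± 0.15 in the same order. Of the small subunits, PSBW and PSBTN fell furthest in ada2b-c, with changes of -3.84 and -3.91, followed by PSBX (-3.29) and PSBY (-2.51). PSBR, which helps PSBP bind, had the highest level per kb of all 32 in Col-0, in gcn5 and in ada2b-c. Its Col-0 libraries were spread, at 209020, 230751 and 403789, above the ada2b-c libraries at 34027, 40653 and 37883. The change of PSBR was -1.13 ± 0.40 (adjusted p = 0.0323) in gcn5 and -2.85 ± 0.40 (adjusted p = 2.8e-06) in ada2b-c by limma.

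Between the photosystems, PETC encodes the Rieske iron-sulfur protein of the cytochrome b6f complex, PETM a small subunit of it, and PETE1 and PETE2 the plastocyanins. All 4 genes were called lower in ada2b-c (median -2.49), and PETC and PETE2 were in gcn5. PETE2, the major plastocyanin gene of leaves (AT1G20340, chr1:7042046-7043392, 1 exon), fell furthest. PETE2 stood at 70330.1, 75106 and 89024 in gcn5, at 21989, 21204 and 23314 in ada2b-c, at 37964, 38534 and 37166 in ada2b-cada2a and at 31342, 30174 and 24505 in ada2b-cspc. PETE2 held 196767, 227556 and 216990 in ada2a and 159345, 189534 and 187440 in spc, against 237605, 210596 and 220063 in Col-0. The gcn5 libraries of PETE2 lay below all Col-0 libraries and above all ada2b-c libraries. Its change was -1.52 ± 0.15 (adjusted p = 2.21e-07) in gcn5 and -3.33 ± 0.15 (adjusted p = 5.49e-13) in ada2b-c by limma, a 10.04-fold lower level in ada2b-c and -2.19 on the log2 scale in the corrected values.

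PETE1 (AT1G76100, chr1:28553883-28554930) stood apart from the other genes of the chain. PETE1 stood at 7319.8, 9566 and 5827 in gcn5, at 2979, 3468 and 3205 in ada2b-c, at 4507, 5902 and 4600.4 in ada2b-cada2a and at 4281, 3778 and 3935 in ada2b-cspc. PETE1 held 6475, 12843 and 7945 in ada2a and 5593, 4241 and 4036 in spc, against 6707, 6223 and 4301 in Col-0. Its gcn5 libraries overlapped Col-0 and had the higher mean, and its ada2b-c libraries lay below Col-0 by less than for any other of the 32 genes. The change of PETE1 was 0.39 ± 0.23 (adjusted p = 0.2) in gcn5 and -0.81 ± 0.23 (adjusted p = 0.00426) in ada2b-c by limma, and in the corrected values that in ada2b-c was -0.16 and was not called. Neither double mutant reached the threshold for PETE1, with changes of -0.18 ± 0.23 (adjusted p = 0.506) in ada2b-cada2a and -0.50 ± 0.23 (adjusted p = 0.0653) in ada2b-cspc by limma. PETC changed by -1.34 ± 0.19 in gcn5 and -2.29 ± 0.19 in ada2b-c, and PETM by -0.80 ± 0.35 and -2.69 ± 0.35 in the same order, with PETM not called in gcn5.

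On the acceptor side of photosystem I, FD2 encodes the major leaf ferredoxin, and FNR1 and FNR2 the leaf isoforms of ferredoxin-NADP reductase. FD2 (AT1G60950, chr1:22444307-22445291) and PSAN had the most negative changes of the 32 genes in gcn5, and their order was within their standard errors. FD2 stood at 18879.9, 16548 and 14748 in gcn5, at 9255, 8778 and 9075 in ada2b-c, at 13544, 13488 and 13415 in ada2b-cada2a and at 13826, 13067 and 11424 in ada2b-cspc. FD2 held 61618, 68855 and 52231 in ada2a and 61689, 45875 and 57871 in spc, against 86728, 69506 and 74759.7 in Col-0. Its gcn5 libraries lay well below those of Col-0 and nearer to those of ada2b-c, and ada2a and spc libraries lay below Col-0 as well. FD2 changed by -2.20 ± 0.16 (adjusted p = 1.5e-09) in gcn5 and by -3.09 ± 0.16 (adjusted p = 1.82e-12) in ada2b-c by limma, so that the gcn5 change was 71.4% of that in ada2b-c, the largest such share among the 32 genes. The difference of FD2 between gcn5 and ada2b-c was called as deposited and was not called in the corrected values.

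The reductase copies are given in turn. FNR1 stood at 25462, 32663 and 38553 in gcn5, at 8723, 9222 and 9529 in ada2b-c, at 14724, 16206 and 14216 in ada2b-cada2a and at 12126, 12821 and 11523 in ada2b-cspc. FNR1 held 54233, 68412 and 70448 in ada2a and 45722, 60149.5 and 53232 in spc, against 41366, 55712 and 49772 in Col-0. FNR1 was lower in gcn5 than in Col-0 without overlap, and its ada2a and spc libraries overlapped Col-0. FNR2 stood at 27738, 17666 and 14656 in gcn5, at 10073, 11155 and 11076 in ada2b-c, at 15601, 17768 and 16878 in ada2b-cada2a and at 12920.2, 15037 and 14385 in ada2b-cspc. FNR2 held 21285, 14391 and 8497 in ada2a and 22944, 8484 and 13678 in spc, against 34515, 31883 and 28554 in Col-0. FNR2 libraries lay below all Col-0 libraries in each of the 6 mutants. FNR1 changed by -0.61 ± 0.17 (adjusted p = 0.00812) in gcn5 and -2.41 ± 0.17 (adjusted p = 2.57e-10) in ada2b-c, and FNR2 by -0.71 ± 0.31 (adjusted p = 0.0797) and -1.55 ± 0.31 (adjusted p = 0.000164) in the same order by limma, the gcn5 change of FNR2 not being called.

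ATPD and ATPC1 encode the delta subunit and the redox-regulated gamma subunit of the chloroplast ATP synthase. Both were called lower in gcn5 and in ada2b-c. ATPD stood at 17908, 21201 and 28567 in gcn5, at 4566, 4339 and 4717 in ada2b-c, at 8522, 8015 and 8276 in ada2b-cada2a and at 7481, 7498 and 5929 in ada2b-cspc. ATPD held 66555, 87494 and 82768 in ada2a and 54932, 83020.3 and 72785 in spc, against 51518, 60914 and 69397 in Col-0. ATPD separated the gcn5, ada2b-c and double mutant libraries from Col-0, with changes of -1.44 ± 0.19 (adjusted p = 5.22e-06) in gcn5 and -3.73 ± 0.19 (adjusted p = 1.82e-12) in ada2b-c by limma. ATPC1 stood at 28004, 25874 and 17491 in gcn5, at 12115, 12389 and 12374 in ada2b-c, at 20421, 23407 and 20496 in ada2b-cada2a and at 18228, 17807 and 15683 in ada2b-cspc. ATPC1 held 33061, 31766 and 19966 in ada2a and 29013, 14759 and 21768 in spc, against 53570.3, 47609 and 38654 in Col-0. For ATPC1 the libraries of all 6 mutants lay below those of Col-0, and its change was -0.99 ± 0.23 in gcn5 and -1.91 ± 0.23 in ada2b-c.

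**Figure D1:**
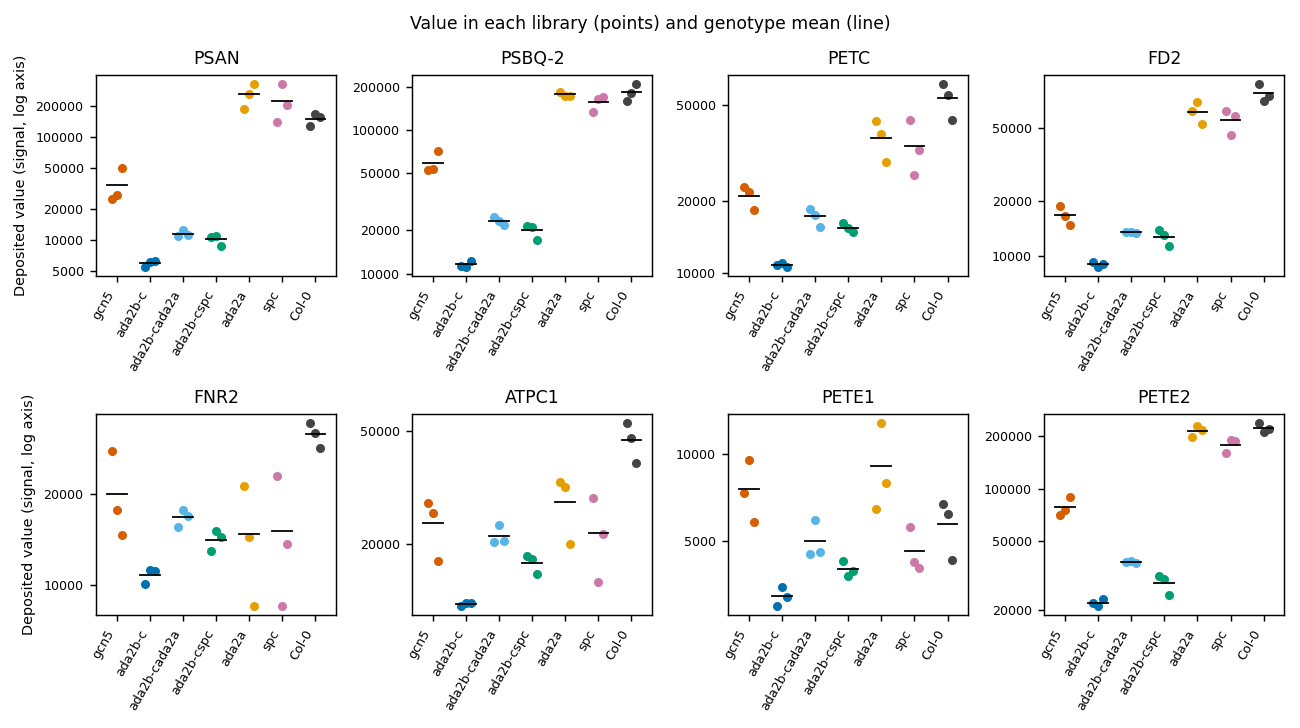
Deposited signal on a log axis in each library of the 7 genotypes for PSAN, PSBQ-2, PETC, FD2, FNR2, ATPC1, PETE1 and PETE2, with points for libraries and a line at the mean of 3. The 3 ada2b-c libraries lie lowest for every gene shown except FNR2, where ada2a and spc libraries reach as low as 8497 and 8484.

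Set directly against ada2b-c, gcn5 kept a higher level of every gene of the chain. All 32 were called higher in gcn5 than in ada2b-c by limma, where 29.8% of all genes tested were, with a median difference of 1.89, a 3.71-fold higher level. The gcn5 libraries lay above all ada2b-c libraries for all 32, against 33.7% of all genes. The largest differences were for PSBTN (2.83 ± 0.36), PSAH-2 (2.68 ± 0.19) and PSAL (2.66 ± 0.27), and the smallest for FNR2 (0.84), FD2 (0.88) and ATPC1 (0.92). In the corrected values 29 were called (25.8% of all genes), with a median of 1.28, and PETC, FD2 and FNR2 were not.

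In both double mutants all of the genes but PETE1 were called lower than in Col-0, with smaller changes than in ada2b-c alone. In ada2b-cada2a 31 of 32 genes were called lower (32.1% of all genes tested, with 30.4% higher), with a median change of -2.29, a 4.89-fold lower level, and in ada2b-cspc 31 (33.3% of all genes, with 31.4% higher), with a median of -2.58, a 5.99-fold lower level. PETE1 was the gene not called in either, with a change of 0.25 in ada2b-cada2a under equal column totals, also not called. In the corrected values 30 were called lower in each (26.8% of all genes in ada2b-cada2a and 28.3% in ada2b-cspc), with medians of -1.76 and -1.95, FNR2 being the other gene lost. No gene was called higher in either. The libraries lay below all Col-0 libraries for 31 genes in ada2b-cada2a (38.6% of all genes) and for 32 in ada2b-cspc (40% of all genes). PSAN, PSAK and PSAO led in both, at -3.69, -3.18 and -3.15 in ada2b-cada2a and at -3.88, -3.43 and -3.55 in ada2b-cspc. The 32 genes took 2.1 ± 0.06% of the column total in ada2b-cada2a and 1.82 ± 0.14% in ada2b-cspc (SD, n = 3 each).

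Tested against ada2b-c itself, the chain was partly higher in ada2b-cada2a. In that comparison 26 of 32 genes were called higher and 0 lower by limma, where 9.45% of all genes tested were higher, with a median difference of 0.80. The largest were PSBTN at 1.11 ± 0.36 (adjusted p = 0.0423), PSAG at 1.01 ± 0.19 (adjusted p = 0.000819) and PSBQ-2 at 1.01 ± 0.17 (adjusted p = 0.0003). PSAF, PSAH-1, PSBR, PETM, PETE1 and FNR2 were not called, and the corrected values also gave 26 (12.3% of all genes). Without any 1 of ada2b-c replicate 2, ada2b-c replicate 3 or ada2b-cada2a replicate 1 the count was 17. Over all genes tested it was then 1506 to 1546. In ada2b-cspc 7 of 32 were called higher than in ada2b-c (5.88% of all genes), with a median of 0.49, and the corrected values also gave 7 (8.01% of all genes). As deposited they were PSBQ-2 (0.78), PSAG (0.73), PSAK (0.72), PSAD-1 (0.67), PSAE-1 (0.61), ATPD (0.61) and PSAD-2 (0.49). That count was 2 or 3 without any 1 ada2b-c library or without ada2b-cspc replicate 1 or 2. Over all genes tested it was then 820 to 958. The libraries of each double mutant lay above all ada2b-c libraries for 31 of 32 genes, PSBR being the exception, against 26.7% of all genes for ada2b-cada2a and 23.5% for ada2b-cspc.

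In the single mutants ada2a and spc some of the genes were called, in both directions. As deposited, the share called was below that over all genes tested in spc both ways and for genes lower in ada2a. It was above that share for genes higher in ada2a. In ada2a 3 of 32 were called lower (19.9% of all genes tested) and 12 higher (19.8%), with a median change of 0.33. In spc 6 were lower (25.7%) and 5 higher (21.7%), with a median of -0.05. The direction of the medians depended on the scaling. With equal column totals the median was -0.04 in ada2a and -0.33 in spc, and in the corrected values -0.08 and -0.41. The ada2a change was above 0 for 25 of 32 genes as deposited, 15 with equal totals and 14 corrected, and the spc change for 14, 10 and 5. FNR2, ATPC1 and PETC were lower in both, at -1.20 ± 0.31 (adjusted p = 0.00594), -0.74 ± 0.23 (adjusted p = 0.0169) and -0.55 ± 0.19 (adjusted p = 0.0265) in ada2a and at -1.19 ± 0.31 (adjusted p = 0.00467), -1.13 ± 0.23 (adjusted p = 0.000998) and -0.67 ± 0.19 (adjusted p = 0.00745) in spc by limma. Without ada2a replicate 3 none of the 3 was called in ada2a, and in the corrected values ATPC1 was not called there (-0.50). In a fit of only the groups compared, 0 of the 32 genes were called in ada2a, and in spc 1 was lower and 0 higher. Over all genes tested that fit called 1980 lower and 2824 higher in ada2a, and 2104 and 2339 in spc. PSBP-1 was lower in spc as well, at -0.68 ± 0.16 (adjusted p = 0.00289). PETC libraries stood at 42758, 37952 and 28972 in ada2a and at 43418, 25702 and 32519.7 in spc, against 61327, 55002 and 43507 in Col-0.

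PETM, PSBTN and PSAE-2, all with short transcripts, were the genes with the largest called rises in ada2a and spc. Their changes were 1.26 ± 0.35 (adjusted p = 0.00976), 1.24 ± 0.36 (adjusted p = 0.0124) and 1.16 ± 0.31 (adjusted p = 0.00765) in ada2a and 1.05 ± 0.35 (adjusted p = 0.0212), 1.0 ± 0.36 (adjusted p = 0.031) and 0.98 ± 0.31 (adjusted p = 0.0156) in spc by limma. In the corrected values they were 0.44, 0.30 and -0.21 in ada2a and 0.13, 0.24 and -0.11 in spc, and none was called. The corrected values had 5 lower (17.2% of all genes) and 1 higher (15.9%) in ada2a and 18 lower (19.1%) and 1 higher (18.1%) in spc, the higher one being PSAH-1 in both (0.99 in ada2a, 0.89 in spc). Without ada2a replicate 3 the counts of ada2a were 0 lower and 2 higher, without Col-0 replicate 1 they were 1 and 3, and without ada2a replicate 2 the higher count was 4. Over all 23290 genes they were 2243 and 2357 without ada2a replicate 3 and 2699 and 2829 without Col-0 replicate 1. Without ada2a replicate 2 the higher count over all genes was 3462. Without spc replicate 2 the counts of spc were 3 lower and 0 higher, without spc replicate 1 they were 10 and 9, without Col-0 replicate 1 the higher count was 0, without Col-0 replicate 2 it was 2 and without spc replicate 3 it was 3. Over all 23290 genes spc had 3580 lower and 3150 higher without spc replicate 2, and 6970 and 5714 without spc replicate 1. The higher counts over all genes were 3483, 4073 and 4231 without Col-0 replicate 1, Col-0 replicate 2 and spc replicate 3. As these comparisons share the Col-0 libraries, the likeness of ada2a and spc was not tested.

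The double mutants were less low than the sum of the single mutant changes for some genes. The interaction was taken as the double mutant's change less both single mutant changes added together. It was called above 0 for 9 of 32 genes with ada2a (7.91% of all genes tested) and for 11 of 32 with spc (5.87%), with medians of 0.36 and 0.59, and below 0 for none of the 32. In the corrected values 19 genes (10.5% of all genes) and 20 (6.39%) were called above 0. ATPC1, FNR2 and PETC had the largest: 1.54 ± 0.33 (adjusted p = 0.00561), 1.83 ± 0.43 (adjusted p = 0.0104) and 1.22 ± 0.26 (adjusted p = 0.00646) with ada2a, and 1.62 ± 0.33 (adjusted p = 0.00441), 1.58 ± 0.43 (adjusted p = 0.0268) and 1.19 ± 0.26 (adjusted p = 0.00827) with spc by limma. These 3 genes were called lower in ada2b-c, in ada2a and in spc, and their libraries in both double mutants lay above those of ada2b-c. FD2, PETE2, PSAD-1, PSBP-1, PSBQ-2 and PSBS were called in both interactions, and PSAD-2 and PSBY in that with spc. The count with spc was 7 without any 1 of Col-0 replicate 1 or 2, the ada2b-c replicates, ada2b-cspc replicate 2 or spc replicate 3. Over all genes tested it was then 599 to 873.

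For 7 subunits encoded by a pair of genes, the share of each copy in their sum per kb of transcript was taken in each library. Dividing by length does not remove the trend over length that moved with genotype. No share was taken from corrected values, so for copies of unlike length a shift and that trend cannot be told apart here. Relative to the Col-0 share, the shift was largest for plastocyanin. PETE1 made up 11.8, 14.1 and 7.76% in gcn5 and 14.8, 17.4 and 15.02% in ada2b-c, against 3.50, 3.66 and 2.45% in Col-0. It averaged 14.5 ± 1.73% in ada2b-cada2a, 15.3 ± 1.65% in ada2b-cspc, 5.11 ± 1.45% in ada2a and 3.27 ± 0.909% in spc (SD, n = 3 each). The shares in ada2a were 4.06, 6.76 and 4.49%. In every mutant except spc the shares lay above all those of Col-0, with an exact two-sided permutation p of 0.1, the smallest that 3 against 3 libraries can give. PETE2 stayed the more abundant copy in every library.

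The reductase shifted towards FNR2 in ada2b-c, with FNR1 at 51.7, 68.3 and 75.4% in gcn5, 50.2, 49.05 and 50.04% in ada2b-c and 74.8, 84.7 and 90.6% in ada2a, against 58.3, 67.05 and 66.99% in Col-0. The ada2b-c shares lay below all those of Col-0 (exact permutation p = 0.1), and the gcn5 shares spanned them (exact permutation p = 0.8). PSAH-1 averaged 29.8 ± 2.94% in gcn5 and 38.1 ± 3.10% in ada2b-c, against 22.1 ± 7.10% in Col-0, and PSBQ-1 averaged 37.4 ± 0.975% in gcn5 and 48.03 ± 4.40% in ada2b-c, against 32.8 ± 1.87% in Col-0. PSAE-1 averaged 28.7 ± 3.25%, 26.4 ± 2.68% and 36.2 ± 1.34% in the same groups. PSBO1 averaged 84.4 ± 2.50%, 80.9 ± 0.740% and 86.2 ± 0.453% in them, with the ada2b-c shares below all those of Col-0 (exact permutation p = 0.1) and the gcn5 shares overlapping them (exact permutation p = 0.3). PSAD-1 averaged 69.2 ± 1.65%, 66.2 ± 0.630% and 65.7 ± 2.07%, and both mutants overlapped Col-0 (exact permutation p = 0.2 for gcn5 and 0.8 for ada2b-c). The copies share 60% (PETE) to 87.0% (PSAH) of their coding bases and no run longer than 35 bases, against reads of 150 bases, and how the authors counted reads that fit both copies is not given in the sources used here.

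**Figure D2:**
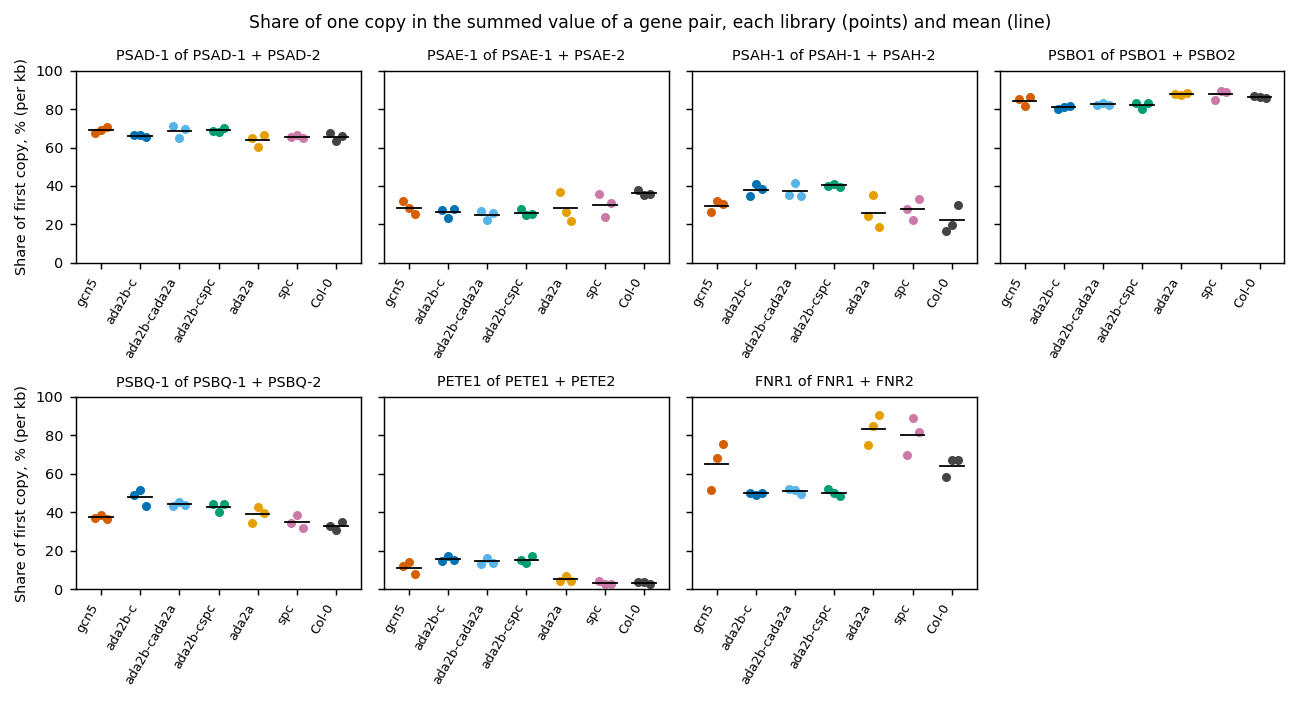
Share of the first copy in the sum of both copies per kb of transcript, in percent, for 7 pairs of genes in the 7 genotypes, with points for libraries and a line at the mean. PETE1 rises above its Col-0 shares of 2.45% to 3.66% in every mutant except spc, least so in ada2a, and FNR1 is lowest in ada2b-c and highest in ada2a.

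Most genes listed for the assembly and regulation of the chain were also called lower in gcn5, ada2b-c and both double mutants. Of 21 listed, NDHL was listed at or near 0 in every library, and 20 were tested. In gcn5 12 of 20 were lower and 0 higher (median -0.91), where 18.7% of all genes tested were lower, and in ada2b-c 16 were lower and 1 higher (median -1.89), where 33.6% were lower. In ada2b-cada2a 16 were lower and 0 higher (median -1.43), against 32.1% of all genes lower, and in ada2b-cspc 16 and 0 (median -1.59), against 33.3%. Whether these genes and the 32 subunit genes changed alike was not tested. PGR5 and PGRL1A, which act in cyclic electron flow around photosystem I, changed by -2.11 and -1.20 in gcn5 and by -3.38 and -2.92 in ada2b-c, and PSB27, a photosystem II assembly factor, by -0.99 in gcn5 and -3.17 in ada2b-c. LPA1, another assembly factor of photosystem II, was higher in ada2b-c, by 0.61 ± 0.25 (limma adjusted p = 0.0402). In ada2a 8 were lower (19.9% of all genes) and 5 higher (19.8%), and in spc 9 lower (25.7%) and 4 higher (21.7%). The corrected medians were -0.72 in gcn5 and -1.24 in ada2b-c.

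Other nuclear genes for the same proteins or complexes did not all move one way. Of 7 listed, ATPC2 was at or near 0 in every library. In ada2b-c 2 of 6 tested were lower (33.6% of all genes), FD1 (-2.55), a minor leaf ferredoxin, and ATPG (-2.51), a subunit of the ATP synthase. RFNR1 (1.52) and RFNR2 (0.76), the root isoforms of the reductase, were higher, and the median was 0.00. In gcn5 FD1 (-1.19) and RFNR2 (-0.86) were lower (18.7% of all genes) and none was higher.

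Nuclear subunits of the mitochondrial chain give the nearest comparison outside the chloroplast. In gcn5 2 of 20 were lower and 0 higher, with a median of -0.00, against -1.11 for the photosynthetic genes. Over all genes tested 18.7% were lower and 15.6% higher in gcn5. In ada2b-c 16 of 20 were lower and 1 higher, with a median of -1.03, where 33.6% of all genes tested were lower and 32.4% higher. The corrected values gave 9 lower, 3 higher and a median of -0.36, against -2.29 for the photosynthetic genes. Over all 23290 genes they gave 6677 (28.7%) lower and 8327 higher. CYTC-2, a cytochrome c, had the lowest change in ada2b-c (-2.36), followed by ATP15 (-1.63) and QCR7-1 (-1.61), and SDH1-1, a subunit of succinate dehydrogenase, was higher (2.21 ± 0.27). In ada2a 3 were lower (19.9% of all genes) and 10 higher (19.8%), and in spc 1 lower (25.7%) and 10 higher (21.7%). The difference between the 2 lists was not tested.

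**Figure D3:**
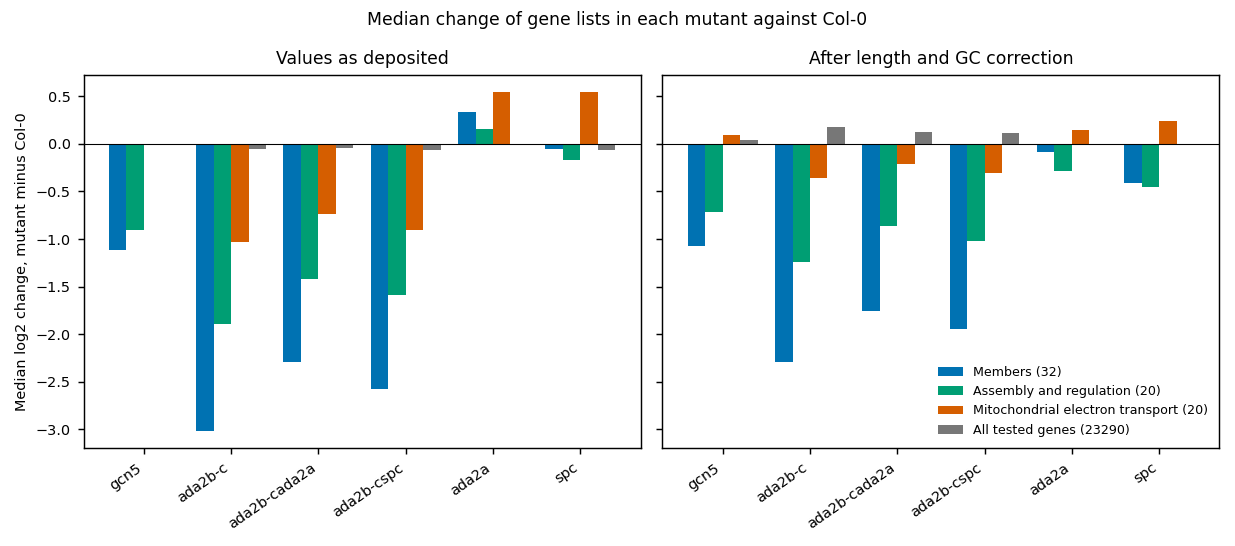
Median log2 change against Col-0 in each mutant for the 32 photosynthetic genes, 20 genes of their assembly and regulation, 20 mitochondrial genes and all 23290 genes tested, from deposited and from corrected values. The photosynthetic median is -1.11 in gcn5 and -3.02 in ada2b-c as deposited, against 0 and -0.06 over all genes tested.

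Of 5 known activators of photosynthesis genes, 4 were lower in gcn5 (18.7% of all genes) and in ada2b-c (33.6%). GLK1 averaged 2382 in gcn5 and 1493 in ada2b-c, against 7149 in Col-0, which are changes of -1.59 and -2.26, and GLK2 averaged 3220 in gcn5 and 1070 in ada2b-c, against 9158 in Col-0, which are changes of -1.54 and -3.08. GNC, a GATA factor of greening, changed by -2.18 in gcn5 and -2.27 in ada2b-c, and its homologue CGA1 was higher, by 0.84 and 0.99. HY5, a light-signalling factor, changed by -1.43 in gcn5 and by -0.77 in ada2b-c, where the corrected value was 0.09 and not called. In ada2a none of the 5 was called (19.9% of all genes lower and 19.8% higher). In spc GLK1 (-0.95) and GLK2 (-0.70) were lower (25.7% of all genes) and CGA1 (0.81) higher (21.7%).

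Markers of the cells and stages that such plants can hold moved with genotype too. Of 5 markers of leaf mesophyll, among them genes of carbon fixation, 4 were called lower in gcn5 (18.7% of all genes) and 3 in ada2b-c (33.6%). Those 3 were CA1 at -3.50, RBCS1A at -1.66 and GAPA-1 at -1.44, and the rest of the 5 were not called lower in ada2b-c. The summed signal of the 5 ran from 294062 to 391157 in gcn5, from 185118 to 211892 in ada2b-c, from 248464 to 285524 in ada2b-cada2a, from 221785 to 265674 in ada2b-cspc, from 461177 to 811920 in ada2a, from 341115 to 442362 in spc and from 514539 to 677628 in Col-0. Of 6 flower markers, 3 were lower in gcn5 (18.7% of all genes) and 6 in ada2b-c (33.6%). They summed to 376 to 512 in gcn5, 57.4 to 73.8 in ada2b-c, 195 to 237 in ada2b-cada2a, 131 to 163 in ada2b-cspc, 1778 to 1975 in ada2a, 2110 to 2397 in spc and 826 to 1075 in Col-0, and AG, the carpel and stamen gene, was listed at or near 0 in ada2b-c. The 5 markers of senescent leaves summed to 4446 to 4851 in gcn5, 5162 to 5639 in ada2b-c and 3735 to 4350 in Col-0, and they did not move one way. In gcn5 SAG12 (4.2) and SAG13 (2.80) were called higher (15.6% of all genes) and NAP (-1.78) lower (18.7%), with a median of 0.01 over the 5. In ada2b-c SAG13 (2.66) and ORE1 (0.39) were called higher (32.4% of all genes) and 0 lower (33.6%), with a median of -0.28, and SAG12 (-0.44) was not called. The tissue is labelled seedlings, and 4 of the 6 root markers passed the filter on low values. The root hair marker EXPA7 was listed at or near 0 in all 6 mutants and stood at 0.0114 to 2.15 in Col-0, and EXPA18 was at or near 0 in every genotype except ada2a (0.207 to 4.76). COBL9, another of the 6, was at or near 0 in ada2b-c and in both double mutants only. The 6 root markers summed to 1146 to 1196 in gcn5, 1137 to 1274 in ada2b-c and 1094 to 1229 in Col-0. They summed to 1190 to 1405 in ada2b-cada2a, 1071 to 1313 in ada2b-cspc, 1107 to 1359 in ada2a and 850 to 1315.5 in spc. The 3 guard cell markers summed to 415 to 608 in gcn5, 868 to 918 in ada2b-c and 718 to 939 in Col-0. The part of these markers in the changes of the photosynthetic genes was not tested.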

How the data were processed

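RNA from 30-day-old plants of 7 genotypes was sequenced in 21 libraries, as read pairs of 150 bases from a NovaSeq machine, per the labels' protocols. Plants spent 12 days on plates before soil, under 16 h light and 8 h dark at 22 °C, and TRIzol was used for total RNA. The submitters' processing notes name bcl2fastq, HISAT2, edgeR and TAIR10. Tool versions, the counting program, the annotation and strandedness were not stated, that is, not given in the sources used here. The deposited values are signal per nuclear gene, fractional and never negative, with genes without signal at or near 0. Their form resembles library-size-adjusted pseudo-counts, which no source states, and no count model was fitted. Subunits made in the plastid were not analysed here.

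Values were analysed as log2(signal + 1) with limma 3.58.1 in R 4.3.3, with a variance trend, 1 mean per genotype over all 21 libraries and Benjamini-Hochberg adjustment in each of 11 comparisons. Genes with a mean of at least 1 were tested. Corrected values had a smooth fit on transcript length and GC content (a spline, 5 degrees of freedom each) subtracted per library, fitted to 18559 genes with a mean of at least 30. The steps were tested on simulated data. Coordinates, transcript lengths and promoters came from TAIR10.1. Every member was accounted for. Values in every library were given for the member with the largest called change of each role in ada2b-c, for both copies of a pair and for members that moved against their group, and in other comparisons the 3 called members with the largest changes each way were named. Members, lists, naming rule and alternatives were chosen with earlier results of these data known. Python 3.11.15 with matplotlib 3.10.9 made the figures.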

Additional observations from a re-analysis of the deposited data

Results flagged for a closer look

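The following results were selected because the effect of ada2a or spc differed between an ada2b-c and a wild-type background by the interaction term of the limma fit. With ada2a, 9 of 32 genes had an interaction called above 0. FNR2 had 1.83 ± 0.43 (limma adjusted p = 0.0104), ATPC1 1.54 ± 0.33 (adjusted p = 0.00561) and PETC 1.22 ± 0.26 (adjusted p = 0.00646) on the log2 scale. With spc, 11 of 32 genes were called above 0, with ATPC1 at 1.62 ± 0.33 (adjusted p = 0.00441), FNR2 at 1.58 ± 0.43 (adjusted p = 0.0268) and PETC at 1.19 ± 0.26 (adjusted p = 0.00827). The signal of these genes in ada2a and spc was spread over the libraries, with FNR2 at 21285, 14391 and 8497 in ada2a and 22944, 8484 and 13678 in spc, and that spread enters each interaction.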

How the results depend on the processing

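Under the alternatives run, the fall in ada2b-c was called for 29 to 32 of the 32 genes, that in the double mutants for 27 to 32, that in gcn5 for 21 (at changes of at least 1) to 29, and the higher level in gcn5 than in ada2b-c for 28 to 32. Equal column totals and the correction with the replicate block each called 1 gene higher in gcn5 (PETE1). The smaller counts depended on the setting, and the cause was not tested. In ada2a the count lower was 7 with equal totals, 5 corrected, 7 corrected with the replicate block, 0 with the length slope as covariate, 1 at changes of at least 1 and 0 in a fit of only the groups compared, and the count higher was 3, 1, 4, 4, 3 and 0 in the same order and 5 with no filter. In spc the count lower was 13, 18, 20, 3, 2 and 1 in that order, and the count higher 3, 1, 1, 0, 1 and 0, and 2 with no filter. Over all 23290 genes the lower counts in that order were 7146, 4016, 4676, 1453, 2364 and 1980 in ada2a. They were 7389, 4459, 5100, 1418, 3522 and 2104 in spc. The higher counts over all genes were 2642, 3709, 4414, 2292, 3018 and 2824 in ada2a and 3523, 4211, 4809, 1728, 3425 and 2339 in spc. Against ada2b-c, ada2b-cada2a had 3 higher at changes of at least 1, where 1265 of all 23290 genes were. ada2b-cspc had 4 with no filter, 0 at changes of at least 1, 15 with the replicate block, 15 corrected with that block, 20 with the covariate, 28 with only the groups compared and 17 without the 4 libraries of lowest length slope. Over all 23290 genes ada2b-cspc had 947 higher at changes of at least 1, 1939 with the block and 2347 corrected with the block. It had 2931 with the covariate and 3651 with only the groups compared. The interaction with ada2a had 15 called with equal totals, 19 corrected, 21 corrected with the block, 18 with the covariate and 4 at changes of at least 1, and that with spc 17, 20, 23, 18 and 5, and 7 with no filter. Over all 23290 genes the interaction was above 0 for 1907, 2452, 3237, 2569 and 1478 with ada2a in that order. With spc it was above 0 for 1168, 1489, 2304, 975 and 1185. Leaving out 1 library at a time gave ada2a 0 to 3 lower and 2 to 14 higher, spc 3 to 10 lower and 0 to 9 higher, ada2b-cada2a against ada2b-c 17 to 20 higher, ada2b-cspc against ada2b-c 2 to 5, and the interactions 6 to 9 and 7 to 13. Over all genes tested these fits gave ada2a 2243 to 5189 lower and 2357 to 5116 higher. In spc they gave 3580 to 6970 lower and 3150 to 5714 higher. Against ada2b-c they gave 1472 to 1565 higher in ada2b-cada2a and 820 to 1060 in ada2b-cspc. The interactions had 881 to 3022 with ada2a and 599 to 4078 with spc. PSAE-2 turned to -0.21 in ada2a and -0.11 in spc in the corrected values, with or without the block, and to -0.079 in spc with the covariate, where PETM (-0.17) and PSBTN (-0.23) turned as well. The labels do not say that replicate numbers pair libraries. Deviations of same-numbered libraries correlated at 0.043 to 0.414 between Col-0, gcn5 and ada2a over all genes tested. Over genes with a mean of at least 30 they correlated at 0.158 to 0.657. Libraries of unlike number in these genotypes ran from -0.642 to 0.304 over the latter genes, reaching into the same-numbered range. Whether the numbers pair these libraries is thus not settled by these values. Over all genotypes the same-numbered correlations ran from -0.164 to 0.444 over all genes tested and from -0.302 to 0.684 over genes with a mean of at least 30. The replicate block within those 3 genotypes gave 29 lower in gcn5, 3 lower and 15 higher in ada2a, 8 and 6 in spc, 32 lower in ada2b-cspc, 28 higher in ada2b-cada2a than in ada2b-c, and 10 and 15 in the interactions with ada2a and spc. Over all 23290 genes it gave 5082 lower in gcn5, 5780 lower and 5432 higher in ada2a, and 7012 and 5714 in spc. It gave 8176 lower in ada2b-cspc, 2964 higher in ada2b-cada2a than in ada2b-c, and 3332 and 3627 in the interactions. With equal column totals the median change over all genes was 0.22 in gcn5, 0.40 in ada2b-c, 0.33 in ada2b-cada2a, 0.37 in ada2b-cspc, -0.37 in ada2a and -0.32 in spc. As deposited it was 0, -0.06, -0.05, -0.06, -0.02 and -0.06 in the same order. Depth is unknown, so its effect on precision could not be given.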
